A study of Mus musculus with 6 samples.

Results

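The genes described here are 10 that encode transporters which carry calcium out of cells or across internal membranes. They were taken from the deposited table of 23016 entries by gene symbol, and each of the 10 symbols matched 1 entry. They comprise 4 potassium-dependent sodium-calcium exchangers (Slc24a2, Slc24a3, Slc24a4 and Slc24a5), 3 sodium-calcium exchangers (Slc8a1, Slc8a2 and Slc8a3) and 3 plasma membrane calcium pumps (Atp2b1, Atp2b2 and Atp2b3). Total RNA of cerebral cortex was sequenced from 6 pups at postnatal day 0, 3 wild type (Fezf2+/+) and 3 Fezf2 KO (Fezf2-/-), born to Fezf2+/- parents. Fezf2 is a transcription factor gene active in deep cortical layers, and no transgene or Cre driver is named for either genotype. Each brain gave 1 library, and in both genotypes replicates 1 and 2 were of litter m1 and replicate 3 of litter m2. The set was chosen by family around Slc24a2, which was selected on its higher counts in the Fezf2 KO libraries of this same table. The difference of Slc24a2 between genotypes is therefore given as a description. Slc24a2 was fitted with all other genes, and where it is said below to pass or not, nothing is read from that call.

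Neurons let calcium in when they fire and must then remove it. Plasma membrane calcium pumps use ATP and bind calcium tightly, so they hold the resting level low. Sodium-calcium exchangers bind calcium less tightly but move it faster, and they draw on the sodium gradient kept by the sodium pump. The Slc8 exchangers trade sodium for calcium, whereas the Slc24 exchangers also carry potassium outward, which lets them work against a steeper gradient. Slc24a2 (NCKX2) is known from neurons and cone photoreceptors, and Slc24a5 (NCKX5) from the pigment cells of skin and eye.

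Levels are normalised read counts, that is, reads per gene divided by 1 scaling factor per library. Gene reads recovered from them numbered 44978380 to 52872577 per library. Fezf2 itself ranged from 5030 to 5928 in wild type and from 1377 to 1989 in Fezf2 KO libraries. The sources used here do not say which part of Fezf2 the allele lacks, so remaining reads cannot be placed. Markers of cortical projection neurons were abundant in every library, with Slc17a7 at 5896 to 10731 and Tbr1 at 10058 to 13929 over all libraries. Some libraries stood apart in markers of neighbouring tissue. Fezf2 KO 1 had 8950 of Ttr, a choroid plexus gene, against 9.45 to 68.0 in the other libraries. Wild type 1 had 453 of Slc22a6, a meningeal gene, against 0 to 2.62 elsewhere. Summed levels of 12 striatal genes were 13077 to 16974 in wild type and 5654 to 11113 in Fezf2 KO, lowest in Fezf2 KO 1, and none of the 12 was at 0 throughout.

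Slc24a2 was the member with the largest difference between genotypes. Wild type replicates 1, 2 and 3 had normalised read counts of 313, 253 and 315, and the corresponding Fezf2 KO replicates had 669, 765 and 696. Every Fezf2 KO library was above every wild type library, and the gap between the genotypes was wider than the range within either. The mean was 293 ± 34.9 in wild type and 710 ± 49.6 in Fezf2 KO (SD, n = 3 each), a 2.42-fold ratio. On the scale of log2(normalised count + 1) the difference was 1.28 (SE 0.112). In whole cortex, a change in the number of cells that make a transcript and a change in its amount per cell cannot be told apart.

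The difference in Slc24a2 was between 1.17 and 1.33 on the log2 scale when each library was left out in turn. Leaving out Fezf2 KO 1, the library high in Ttr, gave 1.32, and leaving out wild type 1, the library high in Slc22a6, gave 1.33. Litter m1 alone gave 1.34, and with 2 libraries per genotype Slc24a2 did not pass the threshold of the fit there. Striatal markers were at lower summed levels in every Fezf2 KO library than in any wild type library. Of 12 striatal genes tested, 1 (Ppp1r1b) was lower by limma, against 0.308% of all genes tested, and 7 did not overlap between genotypes, against 14.5%. Their median log2 difference was -1.33. The mean of centred log2 striatal values was 0.80, 0.51 and 0.32 in wild type replicates 1 to 3. In Fezf2 KO replicates 1 to 3 it was -1.28, 0.27 and -0.62. Astrocyte markers too were at lower summed levels in every Fezf2 KO library. The sums over 6 of them were 15333 to 15568 in wild type and 12348 to 14354 in Fezf2 KO, with a median log2 difference of -0.37, 0 of 6 past the threshold and 2 of 6 not overlapping, and none was at 0 throughout. Summed levels of 6 choroid plexus genes were 64.5 to 93.4 in wild type and 124 to 9589 in Fezf2 KO. Of the 5 tested, 0 passed and 2 (Ttr and Kcne2) did not overlap, while Folr1, Clic6 and Kl overlapped. Ttr was the largest part of the sums in Fezf2 KO 2 and 3, at 65.6 and 68.0, against 9.45 to 15.7 in wild type. Of 6 oligodendrocyte lineage genes, 0 passed and 3 did not overlap, with a median log2 difference of 0.19. Cortical projection neuron markers were at higher summed levels in every Fezf2 KO library. The sums over 6 of them were 80378 to 85626 in wild type and 87880 to 97039 in Fezf2 KO. Their median log2 difference was 0.13, with 0 of 6 past the threshold and 0 of 6 not overlapping. The parts of striatal tissue and of these other cell types in the level of Slc24a2 were not tested.

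RefSeq promoter windows were listed for 2 transcription starts of Slc24a2. The sequence before each is shown because this is the member whose level differed most. The outer start of Slc24a3, the close relative with the next largest fold, is shown for comparison. Outer and inner refer to the listed starts only. A gene model reaches 112 bases upstream of the outer Slc24a2 start, and 21 bases upstream of the outer Slc24a3 start. The stretches printed for these starts therefore end where that model begins. The stretches run 5′ to 3′ on the gene's own strand in build GRCm38.p6, from 250 bases before the start up to the start, and bases inside any longer gene model were left out. Capitals mark a TATA box (TATAAA or its reverse complement TTTATA) or a GC box (GGGCGG or CCGCCC).
Slc24a2, outer start, chr4:87230653-87230790, minus strand: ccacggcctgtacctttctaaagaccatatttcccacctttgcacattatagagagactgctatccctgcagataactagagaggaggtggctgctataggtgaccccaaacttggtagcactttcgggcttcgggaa
Slc24a2, inner start, chr4:87227964-87228213, minus strand: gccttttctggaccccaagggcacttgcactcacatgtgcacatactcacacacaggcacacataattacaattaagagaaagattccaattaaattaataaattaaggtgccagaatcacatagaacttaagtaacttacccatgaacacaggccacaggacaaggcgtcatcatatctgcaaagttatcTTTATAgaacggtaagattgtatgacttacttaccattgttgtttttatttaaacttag
Slc24a3, outer start, chr2:145167525-145167753, plus strand: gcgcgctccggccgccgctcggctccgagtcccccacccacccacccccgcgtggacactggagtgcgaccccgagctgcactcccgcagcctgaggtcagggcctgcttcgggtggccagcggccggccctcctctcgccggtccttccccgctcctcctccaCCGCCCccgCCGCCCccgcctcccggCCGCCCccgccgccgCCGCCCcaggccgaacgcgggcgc

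The starts differ in base composition. Over the full 250 bases, the outer Slc24a2 window held 9 CpG and 56.0% G or C, and the inner one 2 CpG and 36.8%. The outer Slc24a3 window held 35 CpG and 80.8%, where the median of 32851 mouse windows was 6 CpG and 52.4%. An inner Slc24a3 window, 74857 bases inside the gene and not shown, held 14 CpG, 63.6% G or C and no GC box. The inner Slc24a2 start lies 2689 bases inside the gene, and 0 of the 250 bases before it lie in an exon of a GENCODE M21 coding transcript. Whether the start itself lies at an internal exon of longer transcripts was not checked, and promoter activity of the stretch was not tested. The inner Slc24a2 window held TTTATA 59 bases before the start, a match found in 12.4% of all windows on either strand. The outer Slc24a3 window held 4 GC boxes, and 6 of the 14 windows of the members held at least 1, against 32.7% of all windows. Windows were listed for 9 of the 10 members. AP-1 sites (TGACTCA or TGAGTCA), cAMP response elements (TGACGTCA) and Egr sites (GCGTGGGCG or CGCCCACGC) were searched as sites of activity-regulated factors. They stood in 0 of the 14 windows, against 4.46%, 1.55% and 0.536% of all windows. Such matches describe letters only, and the deposited counts do not separate reads by transcript start.

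Slc24a3 (NCKX3), a widely expressed potassium-dependent exchanger, was the most abundant member of its family. Wild type replicates 1 to 3 had 3377, 3434 and 3239, and Fezf2 KO replicates 1 to 3 had 3802, 4941 and 4571. The genotypes did not overlap, but Fezf2 KO 1 lay nearer to wild type than to Fezf2 KO 2. The mean was 3350 ± 101 in wild type and 4438 ± 581 in Fezf2 KO (n = 3 each), a 1.33-fold ratio. The log2 difference of 0.40 (SE 0.092, 95% interval 0.19 to 0.61 before adjustment) did not pass with limma over all genes (adjusted p = 0.136). Without Fezf2 KO 1 the difference was 0.50 with a limma adjusted p of 0.0173, and without each of the other libraries the adjusted p was 0.232 to 0.369. With DESeq2 on recovered reads it was 0.00441.

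The other potassium-dependent exchangers were low. Slc24a4 (NCKX4), known from olfactory neurons and enamel-forming cells, had 38.4, 66.3 and 34.4 in wild type and 47.1, 76.3 and 43.3 in Fezf2 KO. Replicate 2 was the highest library in each genotype, and the genotypes overlapped. It had 40 to 85 reads per library, and its coefficient of variation in wild type was 37.6%. The interval was wide (log2 difference 0.27, 95% interval -0.43 to 0.98, limma adjusted p = 0.904) and includes both 0 and the 0.40 of Slc24a3.

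Slc24a5 had 291, 338 and 323 in wild type and 347, 280 and 297 in Fezf2 KO. The genotypes overlapped, and the log2 difference of -0.05 (95% interval -0.31 to 0.22, limma adjusted p = 0.962) turned to 0.02 without Fezf2 KO 2. The origin of these reads is uncertain. Of all runs of 30 bases in the GENCODE M21 coding transcript of Slc24a5, 48.8% occur also in transcripts of other genes, 868 of those 939 runs in Myef2 on the opposite strand. Whether the counting used strand is not stated. Myef2, which encodes a myelin gene repressor, had 3341 to 4036 per library. Pigment cell markers differed in level. Tyr (0.94 to 3.25), Tyrp1 (0.87 to 5.30) and Mlana (0 to 0.94) were near 0, where 3 reads amount to 2.44 to 2.81, and Slc45a2 was at 6.29 to 14.8. Pmel was at 15.5 to 33.2, Dct at 34.9 to 100.1 and Oca2 at 44.9 to 71.5. Summed levels of these 7 genes were 119 to 186 in wild type and 153 to 214 in Fezf2 KO, and 0 of the 3 tested passed. The share of Slc24a5 reads that came from Myef2 was not tested.

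**Figure D1:**
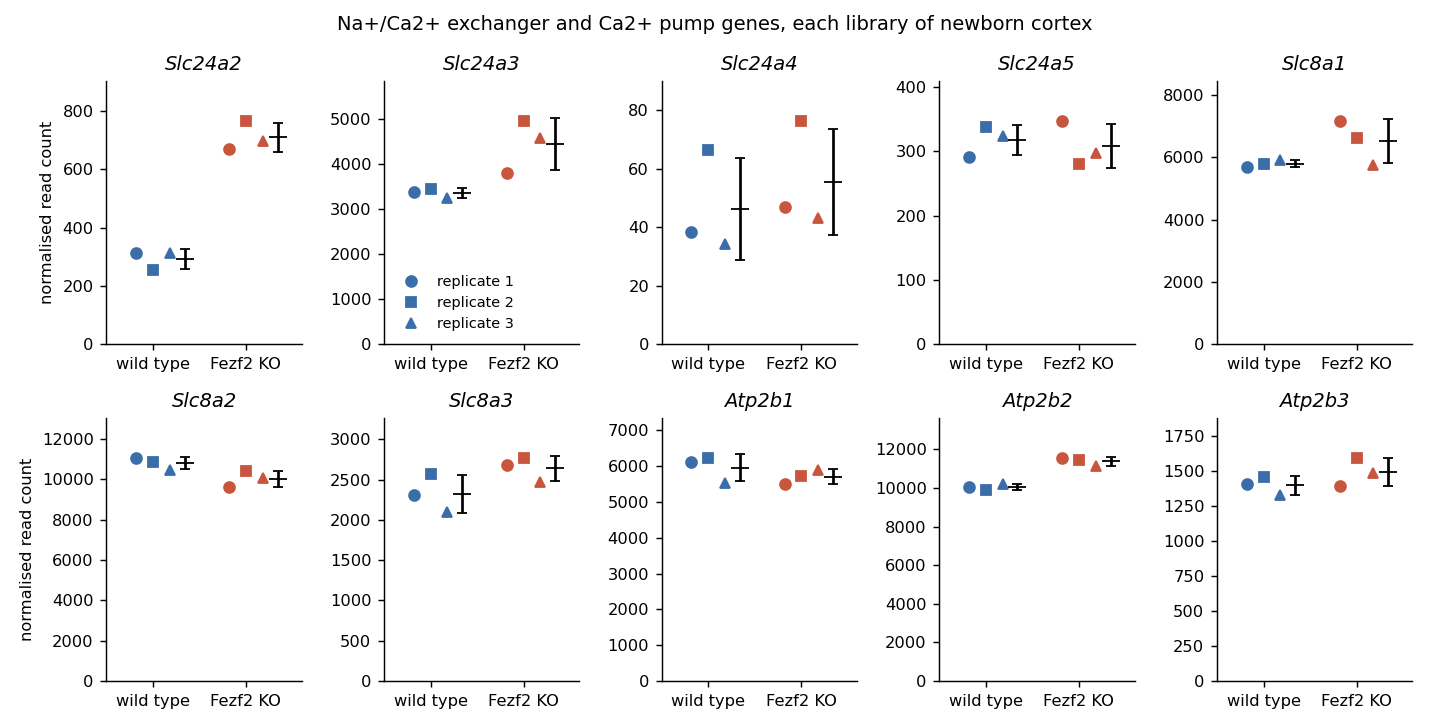
Normalised read count of each member (vertical axes, starting at 0) in 3 wild type libraries (blue) and 3 Fezf2 KO libraries (red), with the mean and SD in black; circles, squares and triangles are replicates 1, 2 and 3. Slc24a2 lies at 253 to 315 in wild type and 669 to 765 in Fezf2 KO, and Slc24a3, Atp2b2 and Slc8a2 are the other members whose genotypes do not overlap.

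Among the sodium-calcium exchangers none passed. Slc8a2 (NCX2), a form found mainly in brain, had 11060, 10836 and 10480 in wild type and 9607, 10407 and 10078 in Fezf2 KO. All Fezf2 KO libraries lay below all wild type ones, but Fezf2 KO 2 was only just under wild type 3. The mean ratio was 0.929 (log2 difference -0.11, SE 0.046, 95% interval -0.21 to 0.00038, limma adjusted p = 0.556). It was the 1 member whose Fezf2 KO libraries were all lower.

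Slc8a1 (NCX1), the exchanger best known from heart muscle, had 5680, 5804 and 5919 in wild type and 7165, 6634 and 5770 in Fezf2 KO. Wild type libraries were close together (SD 120), while Fezf2 KO libraries spread wider (SD 704) and Fezf2 KO 3 lay within the wild type range. The log2 difference was 0.16 (95% interval -0.01 to 0.34, limma adjusted p = 0.594). Leaving out Fezf2 KO 1 gave 0.09, and leaving out Fezf2 KO 3 gave 0.25.

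Slc8a3 (NCX3), a form of brain and skeletal muscle, had 2306, 2567 and 2094 in wild type and 2677, 2770 and 2471 in Fezf2 KO. Wild type 2 reached above Fezf2 KO 3, so the genotypes overlapped. The log2 difference was 0.19 (95% interval -0.0043 to 0.38, limma adjusted p = 0.566). Neither this interval nor that of Slc8a1 reaches the log2 difference of 0.40 measured in Slc24a3. The interval of Slc24a3 itself (0.19 to 0.61) overlaps both, and differences between genes were not tested.

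Among the plasma membrane calcium pumps none passed with limma, and Atp2b2 came closest. Atp2b2 (PMCA2) is a fast pump of neurons and of inner ear hair cells. It had 10075, 9890 and 10189 in wild type and 11565, 11432 and 11143 in Fezf2 KO. The libraries of each genotype were tight and the genotypes did not overlap, with means of 10051 ± 151 and 11380 ± 216 (n = 3 each), a 1.13-fold ratio. The log2 difference of 0.18 (SE 0.039, 95% interval 0.09 to 0.27 before adjustment) had a limma adjusted p of 0.114, and 0.00489 with DESeq2.

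Atp2b1 (PMCA1), the pump of nearly every cell type, had 6104, 6231 and 5533 in wild type and 5495, 5730 and 5896 in Fezf2 KO. The genotypes overlapped (log2 difference -0.06, 95% interval -0.19 to 0.07, limma adjusted p = 0.878). Atp2b3 (PMCA3), a pump of neurons encoded on the X chromosome, had 1406, 1455 and 1325 in wild type and 1394, 1591 and 1483 in Fezf2 KO. It overlapped too (log2 difference 0.09, 95% interval -0.07 to 0.26, limma adjusted p = 0.820). For both pumps the interval lies below the 0.40 of Slc24a3, but the interval of Slc24a3 (0.19 to 0.61) overlaps that of Atp2b3. Differences between genes were not tested.

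All 10 members passed the filter on low values, which asked for a count of at least 10 in at least 3 libraries. Of the 10, 1 was higher, 0 were lower and 9 did not pass, where 0.712% of the 17557 genes tested passed in either direction. The contrast that passed is the one for which the set was drawn up, so nothing is read from that count. In 4 members the genotypes did not overlap, 3 higher (Slc24a2, Slc24a3 and Atp2b2) and 1 lower (Slc8a2), against 14.5% of all genes tested (7.6% higher and 6.85% lower). An unadjusted p under 0.05 was found for 3 members, against 9.03% of all genes. The log2 difference was above 0 in 7 members, against 51% of all genes tested, and its median was 0.17 in the members and 0.0025 in all genes tested. Slc24a2, selected on its higher counts in Fezf2 KO, is included in each of these counts and in the median. Nothing is therefore read from them about the families. By family, Slc24a2 and Slc24a3 had the largest log2 differences, Slc24a4 had 0.27 with a wide interval, Slc24a5 had -0.05, and that of each Slc8 and Atp2b member lay between -0.11 and 0.19.

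**Figure D2:**
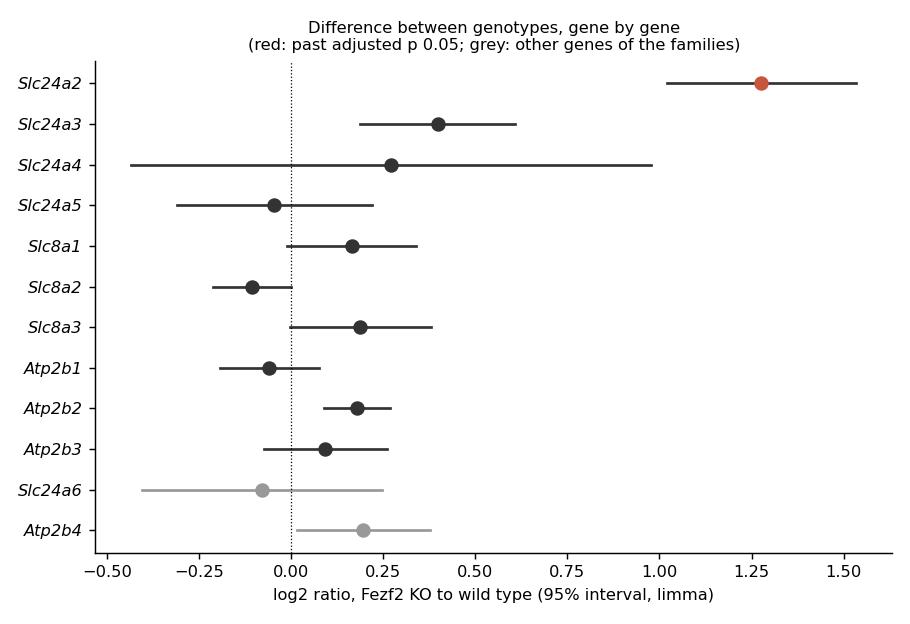
Difference between Fezf2 KO and wild type for each member and for the other measured genes of the families (grey), as log2 ratio on the horizontal axis with its 95% interval before adjustment; red marks a gene past the adjusted p of 0.05. Slc24a2, which was selected on its difference, stands at 1.28, Slc24a3 at 0.40, and the others lie between -0.11 and 0.27.

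Levels of different genes were compared per kilobase of exons in GENCODE M21, a GRCm38 annotation, whereas the counts were made on mm9, so gene models may differ. In wild type the order by normalised reads per kilobase of exons was Slc8a2 (2051 ± 55.6), Atp2b2 (1058 ± 15.9), Slc24a3 (828 ± 24.8), Atp2b1 (631 ± 39.4), Slc8a3 (439 ± 44.8), Slc8a1 (308 ± 6.37), Atp2b3 (290 ± 13.7), Slc24a5 (162 ± 12.2), Slc24a2 (27.4 ± 3.26) and Slc24a4 (10.3 ± 3.85), each with n = 3. Neighbours in this order did not overlap over their wild type libraries, although Slc8a1 and Atp2b3 met at 302. The most abundant member of each family thus was Slc8a2, Atp2b2 and Slc24a3. In Fezf2 KO the order was the same for all 10 members, and Slc24a2 reached 66.3 ± 4.63.

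Scaling to the longest coding sequence in place of all exons left 6 of the 10 members at their rank. Slc8a1, whose exons are mostly untranslated (18807 bases of exons and 2910 of coding sequence), moved to the third rank at 1993 ± 41.2 per kilobase of coding sequence, and Slc24a3 (1731 ± 51.9) and Atp2b1 (1627 ± 102) then overlapped. On that scale Slc24a2 went from 138 ± 16.4 in wild type, below Slc24a5 (211 ± 15.9), to 333 ± 23.2 in Fezf2 KO, above Slc24a5 (205 ± 23.0).

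**Figure D3:**
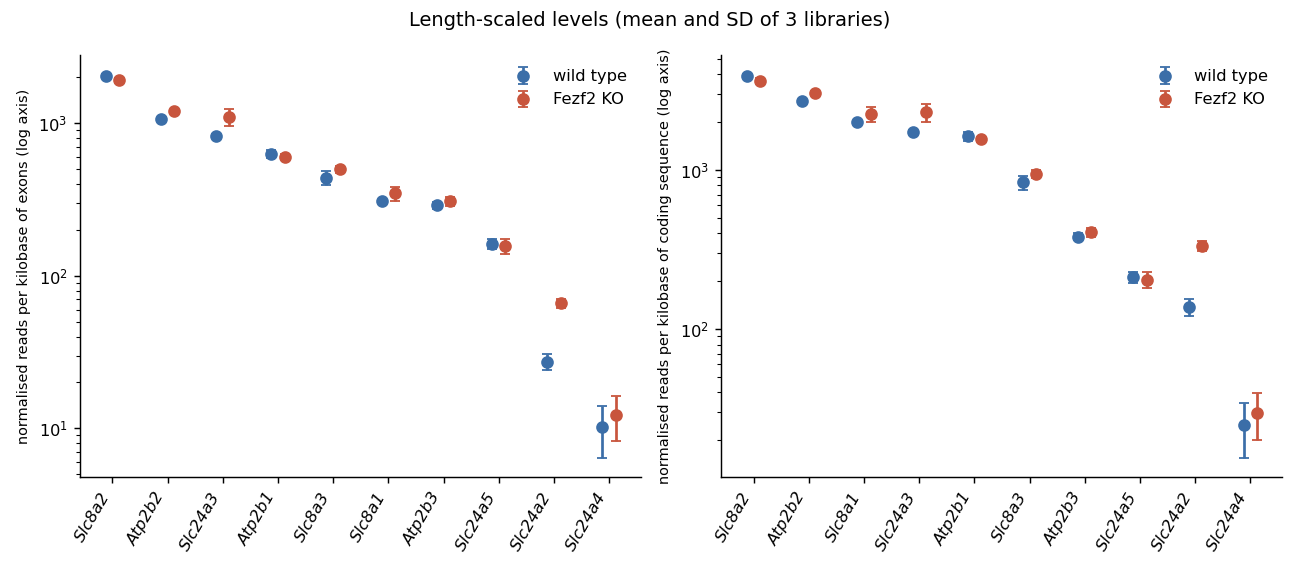
Length-scaled level of each member, as normalised reads per kilobase of exons (left) or of coding sequence (right) on log axes, with the mean and SD of 3 libraries for wild type (blue) and Fezf2 KO (red). Slc8a2 is highest and Slc24a4 lowest on both scales, and Slc24a2 shows the widest gap between genotypes.

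The make-up of the Slc24 family is described in each library, without a test. Slc24a2, which was selected on its counts, held a larger share in the Fezf2 KO libraries. Per kilobase of exons, Slc24a2 made up 2.86%, 2.23% and 2.93% of the summed level of the 4 Slc24 members in the wild type replicates in turn, against 5.25%, 4.92% and 4.79% in the Fezf2 KO replicates. Per kilobase of coding sequence its share was 5.51% to 7.18% in wild type and 11.2% to 12.4% in Fezf2 KO. The share therefore depends on the length used, and on each scale the Slc24a2 shares of the genotypes did not overlap. Slc24a3 held 79.8% to 81.7% of the family level per kilobase of exons in wild type and 79.0% to 84.0% in Fezf2 KO. For every 100 normalised reads of Slc24a3 there were 7.37 to 9.71 of Slc24a2 in wild type and 15.2 to 17.6 in Fezf2 KO.

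Proportions within the other families are likewise described without a test, and no member of these families passed with limma. Each sum covers the 3 members of its family, and shares are of these members only. The other plasma membrane pump gene, Atp2b4, had 3614 to 4003 in wild type and 4092 to 4928 in Fezf2 KO and is not in the Atp2b sum. Per kilobase of exons, the Slc8 sum was 2799 ± 83.5 in wild type and 2752 ± 89.2 in Fezf2 KO, and the Atp2b sum was 1979 ± 39.0 and 2112 ± 26.5 (n = 3 each). Slc8a2 made up 73.3 ± 0.985% of the Slc8 sum in wild type (72.2% to 74.0%) and 69.3 ± 1.96% in Fezf2 KO (67.3% to 71.2%), and Slc8a3 made up 15.7 ± 1.21% and 18.1 ± 0.671%. Atp2b2 made up 53.5 ± 1.79% of the Atp2b sum in wild type (52.0% to 55.5%) and 56.7 ± 1.36% in Fezf2 KO (55.7% to 58.3%), and Atp2b1 31.9 ± 1.38% (30.3% to 33.0%) and 28.6 ± 0.931% (27.9% to 29.7%). The shares of these 4 members did not overlap between genotypes per kilobase of exons or of coding sequence. Shares add up to the sum they were taken from, so these 4 are not independent of each other. Levels of 14.5% of all genes tested did not overlap between genotypes either. How often shares do so in other gene families was not measured, so nothing is read from this count. Atp2b3 made up 14.6 ± 0.429% and 14.6 ± 0.788%, and its shares and those of Slc8a1 overlapped.

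Reads of the members other than Slc24a5 were mostly distinct. At most 2.58% of the runs of 30 bases in their coding transcripts (Atp2b1, which shares 240 runs with a pseudogene) occurred in transcripts of any other gene, and in Slc24a2 it was 0.0464%. The largest overlap between members was that of Atp2b2 and Atp2b3, with 27 shared runs of 9519 and 4806.

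The table also held 6 assembled transcripts named after members and lying near or opposite them. Linc-Slc24a2 had 3 to 6 reads in each library, so a change beside that of Slc24a2 could not be seen. The antisense linc-Atp2b2-AS had 223 to 254 in wild type and 227 to 295 in Fezf2 KO (log2 difference 0.10, limma adjusted p = 0.910). The antisense linc-Slc8a3-AS had 82.0 to 93.7 and 91.0 to 101 (log2 difference 0.13, limma adjusted p = 0.893). Since strand is not stated, reads of Atp2b2 and Slc8a3 and of their antisense partners cannot be told apart where they overlap.

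The remaining genes of these families did not pass. Atp2b4 (PMCA4), the other pump of the plasma membrane, had 4003, 3996 and 3614 in wild type and 4301, 4928 and 4092 in Fezf2 KO. The genotypes did not overlap, and the log2 difference was 0.20 (95% interval 0.01 to 0.38 before adjustment, limma adjusted p = 0.496). Slc24a6 (now named Slc8b1), the mitochondrial sodium-calcium exchanger, had 135 to 157 and 117 to 151 (log2 difference -0.08, limma adjusted p = 0.941). Slc24a1, the exchanger of rod photoreceptors, had 1.62 to 6.55 over all libraries and was not tested.

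Genes that work beside these transporters showed no call. Of 53 genes in 7 lists, 47 were tested and 0 passed with limma, with edgeR or with DESeq2, where 0.712% of all genes tested passed with limma. An unadjusted p under 0.05 was found for 8 of the 47, a larger share than the 9.03% of all genes tested, and their median log2 difference was 0.0085. The lists were the other family genes (0 of 2 tested), pump partners and calmodulin (0 of 5), intracellular calcium pumps (0 of 3), calcium release channels of the endoplasmic reticulum with store-operated entry (0 of 11), mitochondrial calcium uptake (0 of 6), cytosolic calcium-binding proteins (0 of 9) and the sodium pump (0 of 11). Nptn, which encodes the pump partner neuroplastin, had the largest log2 difference of its list at -0.07 (limma adjusted p = 0.887), so the partner of the Atp2b pumps was measured at a mean ratio of 0.954.

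In the organelle lists, Atp2a3, a pump of the endoplasmic reticulum, had 164 to 233 in wild type and 242 to 280 in Fezf2 KO (log2 difference 0.37, limma adjusted p = 0.491). Ryr3, a ryanodine receptor channel, had 308 to 463 and 209 to 353 (-0.45, adjusted p = 0.598 with limma). Ccdc109b, an inhibitory subunit of the mitochondrial uniporter, had 126 to 169 and 183 to 235 (0.49, adjusted p = 0.300 with limma). Of these, Atp2a3 and Ccdc109b did not overlap between genotypes and Ryr3 did.

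In the cytosol, Vsnl1, a calcium-sensing protein of neurons, had 2140 to 2643 in wild type and 2571 to 3079 in Fezf2 KO (log2 difference 0.25, limma adjusted p = 0.471). Fxyd5, a regulator of the sodium pump, had 155 to 309 and 173 to 179 (-0.24, adjusted p = 0.878 with limma), the highest value being that of wild type 1.

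**Figure D4:**
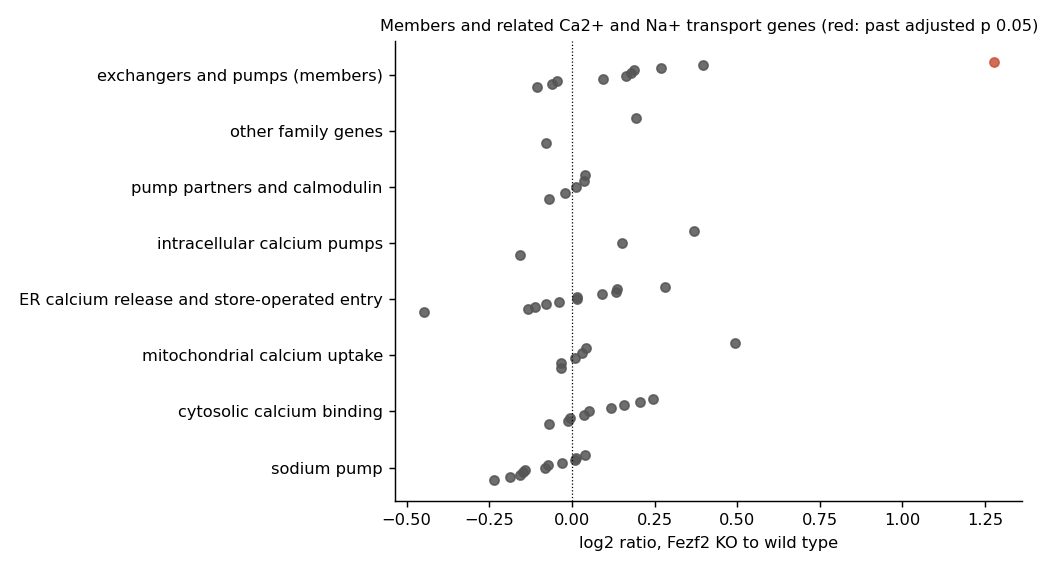
Log2 ratio of Fezf2 KO to wild type for each tested gene of the set and of 7 related lists, 1 point per gene and 1 row per list; red marks a gene past the adjusted p of 0.05. Slc24a2, at 1.28, is the 1 red point and was selected on its difference. The related genes lie between -0.45 and 0.49.

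The genes whose pattern over the 6 libraries was most like that of Slc24a2 were Sulf1 (r = 0.994), Unc13c (0.991), Gucy2e (0.989), Tceb3 (0.988) and Atp6v1b2 (0.987), by Pearson's r of log2(normalised count + 1) among 12289 named genes with a mean of at least 50. The libraries fall into 2 genotypes, so a high r mostly says that a gene separates them cleanly, and r is given as a rank of likeness with no test. Sizes differed widely among these genes. Unc13c, a synaptic vesicle priming protein, was 3.05-fold higher in Fezf2 KO, Sulf1, a heparan sulfate sulfatase, 1.51-fold and the guanylate cyclase gene Gucy2e 1.65-fold. Tceb3, an elongin subunit, and Atp6v1b2, a subunit of the vacuolar proton pump, had mean ratios of 1.07. Neither passed (limma adjusted p = 0.609 for Tceb3 and 0.491 for Atp6v1b2).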

How the data were processed

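The members and the gene lists were chosen with earlier results of these data known. The authors deposited a signal for each gene and library, which is a read count scaled by a size factor for its library, as DESeq does, with no scaling to a fixed total or to length. Bowtie, STAR, DESeq and build mm9 are named in the submitters' processing notes, and settings and strand are not given in the sources used here. The smallest step between values was taken as 1 read (0.812 to 0.936), and 100% of values were whole multiples of it within 0.006. Within a genotype, chi-square per degree of freedom between pairs of libraries was 8.86 to 20.5, so none repeats another. A count of 0 allows up to 3 reads, for counting error only.

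The 17557 genes that reached a value of 10 in 3 or more libraries were fitted with limma 3.58.1 (R 4.3.3) on log2(value + 1), with genotype as the term and a variance trend. Benjamini-Hochberg adjustment ran over all genes tested, with a threshold of 0.05. A fold on this scale understates the change of low genes. Alternatives were a pseudocount of 0.5, no filter, edgeR 4.0.16 (TMM or RLE factors) and DESeq2 1.42.0 on recovered reads, values rescaled by TMM factors, litter as a block, litter m1 alone and each library left out. The fits were tested on simulated data. Litter comes from the labels; deviations from genotype means correlated between same-litter libraries with r from -0.128 to 0.247 and between other pairs from -0.201 to -0.056, over 14913 genes.

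Named genes were the 10 members, Fezf2, the other genes of the families, the passing genes of each related list or else its largest difference, and the 5 genes most like Slc24a2. Outside this rule, single marker genes, Myef2 and the assembled transcripts were named after their values were seen. The marker lists (cortical projection neuron, striatal, thalamic, choroid plexus, meningeal, erythroid, microglia, endothelial, astrocyte, oligodendrocyte and melanocyte) held 1 passing gene, Ppp1r1b. Lengths came from GENCODE M21 and promoter sequences from RefSeq (GRCm38.p6). Figures were drawn with matplotlib 3.10.9.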

Additional observations from a re-analysis of the deposited data

How the results depend on the processing

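With litter as a replicate block in limma, 1 member passed, as without the block, and no member's call changed. The number of members that passed was 3 with DESeq2 (Slc24a2, Slc24a3 and Atp2b2), 0 with litter m1 alone and 1 to 2 when a library was left out, 2 of them (Slc24a2 and Slc24a3) without Fezf2 KO 1. Over all genes the number was 125 in the main analysis, 403 with DESeq2, 29 with litter m1 alone and 61 to 119 when a library was left out (with 77 and 74 on leaving out wild type 2 or 3, and 61 on leaving out Fezf2 KO 3); fewer libraries alone can lower it, and the cause of the higher DESeq2 number was not tested. Slc24a2, which was selected on its difference, had log2 differences of 1.17 to 1.34 over the 14 alternatives. Among the other members, the 1 change of direction was that of Slc24a5, at 0.018 without Fezf2 KO 2 (range over libraries left out -0.13 to 0.018). The related calcium and sodium transport genes gave 0 calls under each of the 14. With coding length, 6 of 10 members held their rank. Slc24a4 had the fewest reads of the members, 40 to 85 per library.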
